A study of Mus musculus with 5 samples.

Results

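The genes described are 10 components of the endoplasmic reticulum protein-folding and quality-control system, Hspa5, Hsp90b1, Xbp1, Calr, Canx, Pdia4, Pdia6, Dnajb9, Sdf2l1 and Herpud1, taken by symbol from the 31053 genes that were counted. All 10 were found, 1 identifier each. They were measured in 5 single-cell libraries of dissociated adult mouse lung sorted as viable CD45-, Ter119- cells. Every mouse carried floxed Itgb1, which encodes the β1 subunit of integrin adhesion receptors. In Itgb1 iKO mice the gene was deleted by doxycycline through the SP-C rtTA TetO-Cre system, in which the surfactant protein C promoter places Cre in alveolar type 2 (AT2) cells, and Itgb1 fl/fl littermates that lacked rtTA and Cre served as controls. The libraries were Itgb1 fl/fl and Itgb1 iKO lungs 7 days after lipopolysaccharide (LPS), Itgb1 iKO lungs 7 days after phosphate-buffered saline (PBS), and Itgb1 fl/fl and Itgb1 iKO lungs 21 days after LPS. An Itgb1 fl/fl library given PBS was not analysed here. The mice of a group were pooled into a single library. Each library had 3 hashtag antibodies in use, and each hashtag was taken as 1 mouse, although the labels do not link hashtags to animals. The day 21 libraries were enriched for EPCAM+ epithelial cells. Because all mice of a condition shared 1 library, condition and library cannot be told apart, and a mouse is named below by the number of its hashtag.

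Proteins that enter the secretory pathway fold in the endoplasmic reticulum with the help of BiP, the Hsp70-family chaperone encoded by Hspa5, and of disulfide isomerases and lectin chaperones. When unfolded protein accumulates, the sensors IRE1, PERK and ATF6 start the unfolded protein response, in which spliced XBP1 and cleaved ATF6 raise transcription of chaperone and degradation genes. AT2 cells make and secrete large amounts of surfactant proteins, among them surfactant protein C, whose misfolded forms are known to load this system.

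Chaperone promoters are known for the endoplasmic reticulum stress response elements, abbreviated ERSE and ERSE-II, which bind NF-Y together with ATF6 or XBP1. The 250 bases upstream of each RefSeq gene start (GRCm38.p6) were searched on both strands for CCAAT, 9 bases of any kind and CCACG (ERSE) and for ATTGG, 1 base of any kind and CCACG (ERSE-II), and all 10 members had a RefSeq promoter. ERSE was found in 37 of 32851 promoters, or 0.113%, and in 5 of the 10 members. Only matches that lay wholly inside the window were counted. ERSE-II was found in 10 of 32851 promoters, or 0.0304%, and in 1 of the 10 members, Herpud1. The elements are shown because they are the sequence feature searched for that members share; they are written 5′ to 3′ on the strand of the gene, with the fixed letters of the motif in capitals.
Hspa5, ERSE, chr2:34772025-34772043: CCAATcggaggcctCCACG
Hsp90b1, ERSE nearer the gene, chr10:86705533-86705551: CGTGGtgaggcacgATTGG
Hsp90b1, ERSE farther from the gene, chr10:86705638-86705656: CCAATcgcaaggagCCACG
Calr, ERSE, chr8:84847075-84847093: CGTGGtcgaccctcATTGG
Canx, ERSE, chr11:50325800-50325818: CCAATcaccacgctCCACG
Pdia6, ERSE, chr12:17266491-17266509: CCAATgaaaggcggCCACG
Herpud1, ERSE-II, chr8:94386377-94386387: ATTGGgCCACG

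The first base of the element lay 52 bases before the RefSeq start in Herpud1, 65 in Hspa5, 98 in Pdia6, 145 in Canx and 162 in Calr, and Hsp90b1 held an element 107 bases and another 212 bases before its start. The element of Calr and the nearer one of Hsp90b1 read on the opposite strand from the gene. The element of Hspa5 lies inside the GENCODE gene, chr2:34771970-34777547 on the plus strand, whose annotated start is upstream of the RefSeq start. The other 6 elements lie outside the GENCODE genes. These exact letters were not in the windows of Xbp1, Pdia4, Dnajb9 and Sdf2l1. The promoter of Herpud1 is given for the gene with the ERSE-II match, and that of Hsp90b1 because it alone held 2 matches. The matched letters are in capitals. The window of Herpud1 also ends in ccaat, the spacing of an ERSE and ccac, so it stops before the last letter of that motif. The next base was outside the window, and whether Herpud1 holds an ERSE there was not tested. The 250 bases of Herpud1 all lie before its GENCODE gene (chr8:94386438-94395377, plus strand), and the window of Hsp90b1 is cut to 185 bases where its GENCODE gene begins (chr10:86690209-86705509, minus strand).
Herpud1, chr8:94386179-94386428, plus strand: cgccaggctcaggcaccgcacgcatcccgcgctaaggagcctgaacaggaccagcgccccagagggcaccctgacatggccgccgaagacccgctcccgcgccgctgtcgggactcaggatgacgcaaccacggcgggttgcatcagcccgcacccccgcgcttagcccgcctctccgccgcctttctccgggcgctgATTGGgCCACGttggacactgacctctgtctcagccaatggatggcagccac
Hsp90b1, chr10:86705510-86705694, minus strand: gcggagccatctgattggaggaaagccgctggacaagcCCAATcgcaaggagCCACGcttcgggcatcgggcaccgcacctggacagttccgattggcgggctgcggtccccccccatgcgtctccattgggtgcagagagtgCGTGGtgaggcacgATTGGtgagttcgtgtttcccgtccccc

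The libraries held 2224 to 8671 kept cells and 8360954 to 29128331 UMIs each, and pairs of libraries shared 24 to 164 cell barcodes. Values were formed in 3 gates. AT2 cells had at least 5% of their transcripts, counted as unique molecular identifiers (UMIs), from Sftpc, with at least 1 UMI of Epcam and none of Cdh5, Pecam1 and Col1a2; endothelial cells had at least 2 UMIs of Cdh5 and Pecam1 and none of Epcam and Col1a2; mesenchymal cells had at least 2 UMIs of Col1a2 and none of Cdh5, Pecam1 and Epcam. Markers that the gates did not use were summed over all cells of a gate in each library, hashtag or not. AT2, endothelial and mesenchymal markers were highest in their own gates. AT2 markers summed to 47124 to 55096 counts per 1000000 UMIs (CPM) in the AT2 gate and at most 2891 in the other gates. Airway markers reached 2316 CPM in the AT2, 1738 in the endothelial and 1361 in the mesenchymal gate. Markers of alveolar type 1 cells reached 2087 in the AT2 and 926 in the endothelial gate. Plasma cell markers, which would mark another cell type rich in these chaperones, summed to at most 11.6 CPM in any gate of a library, and leukocyte markers to at most 10.4. Levels are CPM summed over the single-hashtag cells of a mouse in a gate, and fold changes are log2 values from edgeR's quasi-likelihood test with TMM scaling and Benjamini-Hochberg adjustment over all genes tested, called at an adjusted p below 0.05. Sums with at least 10 cells were tested, which left 12 AT2 sums of 161943 to 2705440 UMIs, 15 endothelial sums of 328052 to 6188551 UMIs and 11 mesenchymal sums of 57829 to 1239199 UMIs. Itgb1 in the AT2 gate was 150.0 to 214 CPM in the iKO mice against 235 to 305 in the fl/fl mice at day 7, and 141 to 178 against 319 to 372 at day 21. The sexes were unequal, as Xist and 4 Y-linked genes showed. All 3 fl/fl mice at day 7 were female and all 3 iKO mice were male, so that genotype and sex cannot be told apart there, whereas at day 21 each genotype held both sexes. Sex was read from the endothelial sums, and at day 21 it was not clean, since fl/fl mouse 1, taken as male, held 66.7 CPM of Xist and 112 of the Y-linked genes in that gate and 381 and 44.8 in its 26 mesenchymal cells.

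In AT2 cells 7 days after LPS, Dnajb9 and Herpud1 were lower in Itgb1 iKO than in Itgb1 fl/fl mice, and no member was higher. Dnajb9 encodes ERdj4, a J-domain cochaperone of BiP that aids degradation of misfolded proteins, surfactant protein C among them, and lies at chr12:44205559-44210326 (GRCm38, minus strand). Its level was 157, 74.1 and 157 CPM in fl/fl mice 3, 4 and 5 and 44.5, 60.7 and 44.5 in iKO mice 3, 4 and 5. The groups did not overlap, but fl/fl mouse 4, with 20 cells, was much nearer the iKO mice than the other fl/fl mice were. The means were 129.5 ± 48.0 (SD, n = 3) and 49.9 ± 9.36 (SD, n = 3). The log2 fold change was -1.51 ± 0.23 (SE) with an adjusted p of 1.88e-04 in edgeR, and the call held in the alternatives that were run, with the highest adjusted p, 0.0468, in the fit without fl/fl mouse 3. The fit of sums with at least 30 cells kept 1 fl/fl mouse and is no check of the spread between fl/fl mice. With sex as a term the fold change was -1.49 (adjusted p = 0.00652). In that fit the sex effect came from the day 21 mice alone.

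Markers of other lung epithelial cells were unequal between the mice in this gate. The 4 airway markers summed to 437, 13536 and 376 CPM in fl/fl mice 3, 4 and 5 and 371, 1677 and 675 in iKO mice 3, 4 and 5, so that the high value was that of fl/fl mouse 4, the fl/fl mouse with the least Dnajb9. Without that mouse the log2 fold change of Dnajb9 was -1.67 (edgeR adjusted p = 4.31e-05) and that of Herpud1 -0.55 (0.0672). The 4 markers of alveolar type 1 (AT1) cells summed to 1234, 1359 and 1590.0 CPM in the fl/fl and 2717, 1976 and 2245 in the iKO mice, without overlap, and 1 of the 3 tested, Ager, was called higher at 0.85 ± 0.14 (SE) (edgeR adjusted p = 7.32e-04). The part of AT1 RNA in the Dnajb9 and Herpud1 values was not tested. At day 21 the sums were 211, 128 and 193 CPM in fl/fl and 480.3, 189 and 262 in iKO mice for airway markers and 1704 to 1902 and 1670.4 to 1861 for AT1 markers, and both overlapped.

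Herpud1 encodes a membrane protein that recruits the ubiquitin ligase of endoplasmic reticulum-associated degradation. It stood at 362, 315 and 338 CPM in fl/fl mice and 255, 267 and 238 in iKO mice, which did not overlap. Its log2 fold change was -0.53 ± 0.14 (SE) with an edgeR adjusted p of 0.0345. This call was lost without TMM scaling (adjusted p = 0.0919), without the filter on low counts (0.114), with only the compared groups in the fit (0.117), with sums of at least 30 cells (0.0765), with hashtags called at 8 times background (0.101), with sex as a term (0.0938) and in 4 of the 6 fits that left out a mouse. Cells without a single hashtag, which entered no fit, gave the opposite order for Herpud1, with 232 (177 to 299.6) CPM in 28 fl/fl cells and 326 (294 to 361) in 155 iKO cells (95% Poisson intervals, counting error only). Of these cells 10 and 139 carried no hashtag and 18 and 16 carried more than 1, which can be doublets. In the same cells Dnajb9 was 138 (96.0 to 192) in fl/fl and 88.6 (72.1 to 108) in iKO, in the order seen in the tagged mice.

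Of 6348 genes tested in the AT2 gate at day 7, 131 (2.06%) were called (42 without fl/fl mouse 3), 74 of them lower (1.17%) and 0.898% higher, and 2 of the 10 members were called lower and none higher; mice did not overlap, with iKO lower, for 5.4% of genes and 2 members, and with iKO higher for 12% of genes and no member. The median log2 fold change was -0.04 over the members and -0.00 over all genes, with 5 members positive and 5 negative. Hspa5 was 577, 568 and 762 CPM in fl/fl and 649.5, 475 and 518 in iKO mice, with overlap and a log2 fold change of -0.32 ± 0.14 (SE) (edgeR adjusted p = 0.32). Calr had the highest value among the 7 other members, 0.37 (edgeR adjusted p = 0.485), and Canx the lowest, -0.22.

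In AT2 cells 21 days after LPS, the order was reversed for Dnajb9, and Hspa5 was also higher in Itgb1 iKO mice. BiP, the product of Hspa5, binds unfolded chains and holds the stress sensors inactive. Hspa5 was 451, 469.8 and 583 CPM in fl/fl mice 1, 2 and 5 and 933, 843 and 937 in iKO mice 1, 2 and 3. The lowest iKO mouse was above the highest fl/fl mouse. The means were 501 ± 71.4 (SD, n = 3) and 904 ± 53.4 (SD, n = 3), and the log2 fold change was 0.71 ± 0.14 (SE) with an edgeR adjusted p of 0.00234, a call that held in every alternative run.

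Within the males, fl/fl mouse 1 stood at 451 CPM of Hspa5 and iKO mice 2 and 3 at 843 and 937. Within the females, fl/fl mice 2 and 5 stood at 469.8 and 583 and iKO mouse 1 at 933. The AT2 sum of fl/fl mouse 1, the only fl/fl mouse taken as male, held 55.4 CPM of Xist and 58.0 of the Y-linked genes, against 11.9 and 4.81 of Xist in iKO mice 2 and 3, so this split by sex is not clean. With sex as a term in the edgeR fit the log2 fold change was 0.78 (adjusted p = 0.00304). Cells without a single hashtag gave 573 (507 to 645) CPM in 44 fl/fl cells and 1099 (1064 to 1134) in 421 iKO cells, of which 11 and 52 carried more than 1 hashtag.

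Dnajb9 was 68.6, 49.3 and 71.2 CPM in the fl/fl mice and 121, 132 and 105 in the iKO mice at day 21, again without overlap. Its log2 fold change was 0.76 ± 0.19 (SE) with an edgeR adjusted p of 0.0185. The call was lost in 4 of 6 fits that left out a mouse, those without fl/fl mouse 1, 2 or 5 or without iKO mouse 2, where the adjusted p was 0.0562 to 0.0958. Sex as a term left it at 0.78 (adjusted p = 0.0312). The cells without a single hashtag stood at 54.7 (35.8 to 80.2) in fl/fl and 141 (129 to 154) in iKO.

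**Figure D1:**
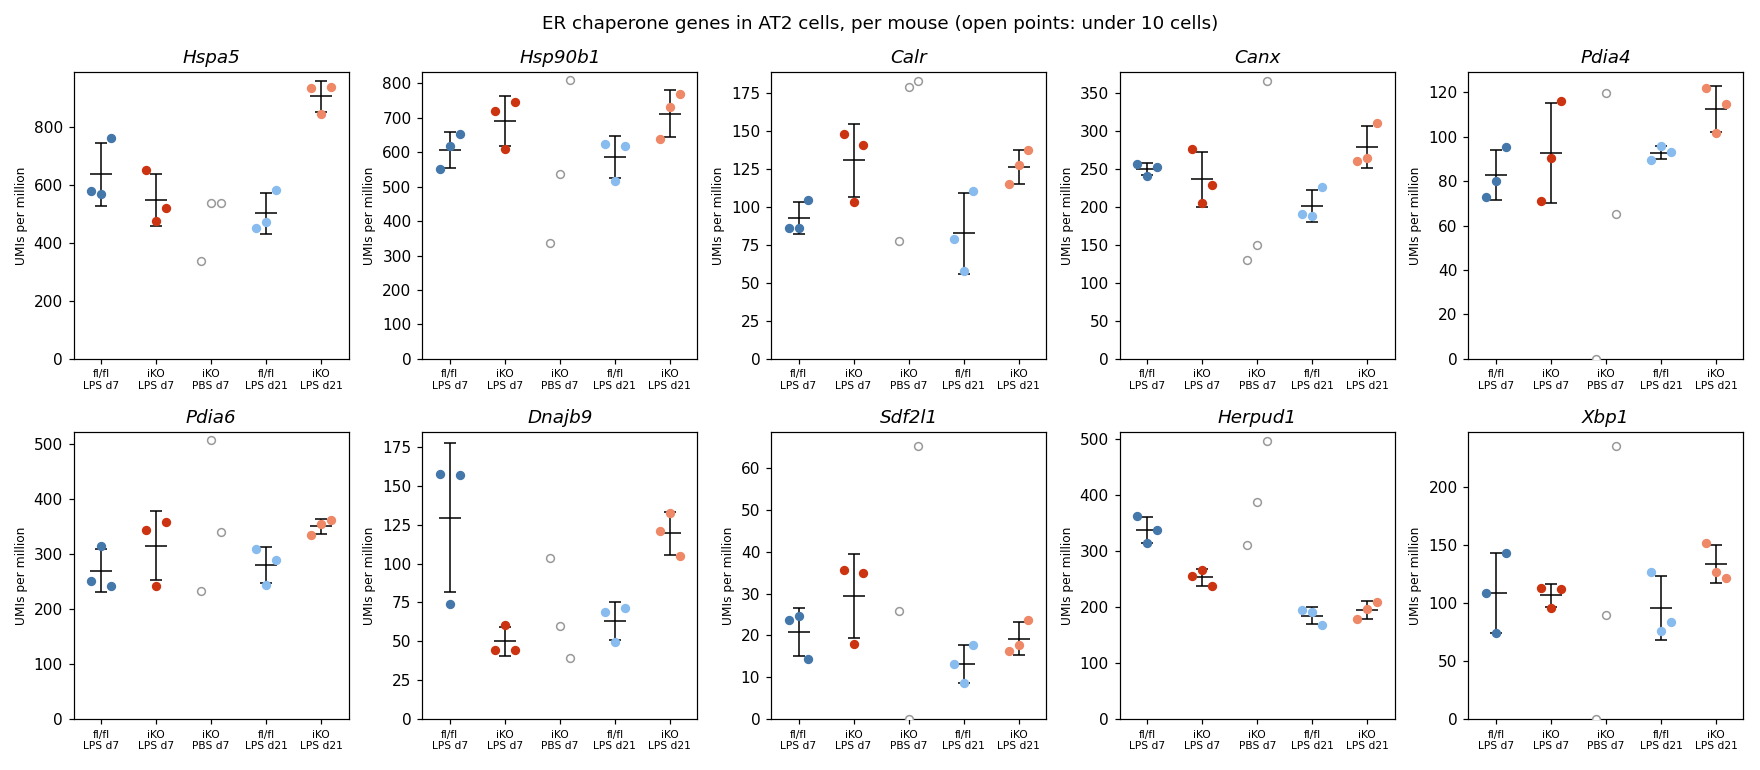
Level of each of the 10 genes in AT2 cells (vertical axis, CPM, from 0) for each mouse in the 5 conditions. Points are mice, open where a mouse had under 10 AT2 cells and entered no fit, and bars are the mean and SD of the filled points. Dnajb9 is lower in iKO than in fl/fl mice at day 7 and higher at day 21, and Hspa5 in the 3 iKO mice at day 21 lies between 843 and 937, above every other filled point.

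At day 21, 257 of 6348 genes (4.05%) were called in AT2 cells (80 to 177 when a mouse was left out), 88 of them higher (1.39%) and 2.66% lower, and 2 of 10 members were called higher and none lower. The iKO mice were above all fl/fl mice for 7 members, Hspa5, Hsp90b1, Calr, Canx, Pdia4, Pdia6 and Dnajb9, where 20% of all genes showed this. The member median was 0.32 against -0.02 over all genes, and 9 members were positive. The lectin chaperones Canx and Calr, which hold glycoproteins during folding, had log2 fold changes of 0.32 ± 0.13 (SE) and 0.40 ± 0.17 (SE) (edgeR adjusted p = 0.178 and 0.199). Canx was 189.9, 189 and 226 CPM in fl/fl and 261, 264 and 310.1 in iKO mice, and passed the threshold only without TMM scaling (0.45, adjusted p = 0.0455). Xbp1, the transcription factor of the IRE1 branch, was 127, 75.4 and 83.5 in fl/fl and 152, 127 and 122 in iKO mice, with overlap and a log2 fold change of 0.39 ± 0.17 (SE) (edgeR adjusted p = 0.23). UMI counts per gene do not separate its spliced from its unspliced form. The disulfide isomerases Pdia4 and Pdia6, GRP94 (Hsp90b1) and the BiP-associated Sdf2l1 lay between 0.15 and 0.31, none of them called, and Herpud1 was at -0.03.

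The difference between days in the genotype effect was tested directly in the AT2 gate. It was 2.27 ± 0.30 (SE) for Dnajb9 (edgeR adjusted p = 4.26e-05) and 1.04 ± 0.20 (SE) for Hspa5 (0.00741), positive meaning a higher iKO against fl/fl ratio at day 21. Of the genes tested, 0.63% passed in either direction and 0.362% in the positive direction. The result for Hspa5 was lost with hashtags called at 8 times background (0.15) and with sex as a term (0.0591), and day was confounded with the EPCAM+ enrichment. Over the 4 LPS conditions Dnajb9 ran from 49.9 ± 9.36 (SD, n = 3) in iKO at day 7 through 63.0 ± 11.9 (SD, n = 3) in fl/fl at day 21 and 119.5 ± 13.8 (SD, n = 3) in iKO at day 21 to 129.5 ± 48.0 (SD, n = 3) in fl/fl at day 7. The lowest and second groups overlapped between mice, as did the third and the highest. In the PBS library the AT2 gate held 4, 2 and 9 single-hashtag cells from its mice, too few for a test. All 26 PBS cells pooled, 11 of them without a single hashtag, gave 93.5 CPM of Dnajb9 (59.9 to 139, 95% Poisson interval), 432 of Hspa5 (356 to 521) and 386 of Herpud1 (313 to 469).

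By cells rather than by summed UMIs, Dnajb9 was detected in 59.7% of 119 fl/fl AT2 cells and 36.6% of 355 iKO AT2 cells at day 7, and in 39.8% of 176 and 58.1% of 1240 at day 21. These shares are over all cells of the gate, hashtag or not; over single-hashtag cells alone they were 58.2% of 91 and 32.0% of 200 at day 7 and 40.2% of 132 and 57.8% of 819 at day 21. After each cell was thinned to 2000 UMIs, which left out 1 to 8 AT2 cells a group, the shares were 28.2% and 14.99% at day 7 and 11.4% and 19.9% at day 21. The shares kept the order of the levels at both days. In endothelial cells, of which thinning left out 35.4% to 50.3% a group, the thinned share was 7.29% in fl/fl and 7.48% in iKO at day 7, and 15.3% and 11.7% at day 21. The thinned share of AT2 cells with Hspa5 at day 21 was 54.3% in fl/fl and 75.2% in iKO.

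No gene of 5 further lists of the same pathway passed the test in either AT2 genotype comparison. The lists were BiP partners (11 genes, all tested), oxidative and glycoprotein folding (13 of 16 tested), degradation (14 of 15), sensors and transcription factors (10 of 11), and translocation with signal peptidase (16 of 16). Of the 64 list genes tested, 0 were called by edgeR or by DESeq2 at either day, with 7 at an unadjusted p below 0.05 at day 7, where the background was 13.4% of all genes, and 10 at day 21, where it was 17.2%. The list medians lay between -0.22 (BiP partners) and 0.08 (oxidative and glycoprotein folding) at day 7 and between -0.05 (translocation) and 0.11 (sensors) at day 21. At day 7, 1 of the 14 degradation genes tested had a positive fold change, with a list median of -0.18 and 1 gene at an unadjusted edgeR p below 0.05. Of the 11 BiP partners, 2 were positive and 3 were below that p. Positive fold changes were found in 7 of 13 genes of oxidative and glycoprotein folding, 6 of 10 sensors and 11 of 16 translocation genes. The median over all genes was -0.00.

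In endothelial cells, where the Cre driver is not placed, no member was called between genotypes at either day. At day 7, 0 of 10 members were called by edgeR and 0 by DESeq2, and 3 were below an unadjusted p of 0.05 (Calr, Hsp90b1 and Xbp1), while 2.46% of 11757 genes were called and 14.6% were below that p. All 10 fold changes were negative, from -0.35 (Calr) to -0.00 (Sdf2l1), with a median of -0.19 against 0.01 over all genes. The iKO mice were below all fl/fl mice for 3 members, Calr, Hsp90b1 and Hspa5, against 9.14% of genes. Hspa5 was 469.5, 449 and 476 CPM in fl/fl and 409, 393 and 433 in iKO endothelial cells (log2 fold change -0.19 ± 0.11 (SE), edgeR adjusted p = 0.431). Dnajb9 was 35.5, 46.9 and 37.7 against 33.2, 43.9 and 40.6, with overlap and a log2 fold change of -0.05 ± 0.16 (SE). Of the 7 endothelial markers none had a positive fold change and their median was also -0.19, while 3 of 7 mesenchymal markers and 1 of 7 AT2 markers were called higher in iKO mice. Of 4 airway markers 2 were called lower, and of 2 red cell markers 1 was called higher. The part of these markers' RNA in the member values was not tested.

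At day 21, 0 members were called in endothelial cells by edgeR or DESeq2, with 2 below an unadjusted p of 0.05 (Canx and Pdia4), while 0.527% of genes were called and 11.5% were below that p. Hspa5 was 699.8, 556 and 512 CPM in fl/fl and 494, 579.9 and 485 in iKO endothelial cells, with overlap and a log2 fold change of -0.17 ± 0.12 (SE). Dnajb9 was 99.2, 65.6 and 50.4 and 70.1, 49.3 and 59.7, also overlapping, at -0.28 ± 0.26 (SE). Sftpc in the endothelial gate was 14013 to 16238 CPM in iKO mice at day 21 against 2280 to 4532 in fl/fl mice. Scaled by the Sftpc level of AT2 cells, all endothelial cells of the iKO library, hashtag or not, held 7.46% AT2-equivalent RNA, which would carry 72.3 of 554 CPM of Hspa5 and 9.40 of 60.3 of Dnajb9; in the fl/fl library the share was 1.29%. The part of this RNA in the endothelial values was not tested.

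The genotype effects in AT2 and endothelial cells of the same mice were compared in an edgeR fit with mouse as a block. Mesenchymal cells, given below, were not part of this comparison. At day 7 the AT2 effect was below the endothelial effect for Dnajb9 by -1.47 ± 0.28 (SE) on the log2 scale (adjusted p = 6.92e-05) and above it for Calr by 0.83 ± 0.24 (SE) (0.0436), where 0.712% and 0.469% of genes were called in those directions. Calr lost its call in every fit that left out a mouse, and Dnajb9 lost it without fl/fl mouse 3 (adjusted p = 0.0986). At day 21 the AT2 effect was above the endothelial one for Hspa5 by 0.86 ± 0.17 (SE) (edgeR adjusted p = 9.61e-05) and for Dnajb9 by 0.99 ± 0.28 (SE) (0.0251), against 0.921% of genes. Dnajb9 lost that call without fl/fl mouse 1 or 2 or iKO mouse 2 (adjusted p of 0.108 to 0.373). DESeq2 called 0 members in either comparison, with adjusted p-values of 0.289 for Dnajb9 at day 7 and 0.238 for Hspa5 at day 21.

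**Figure D2:**
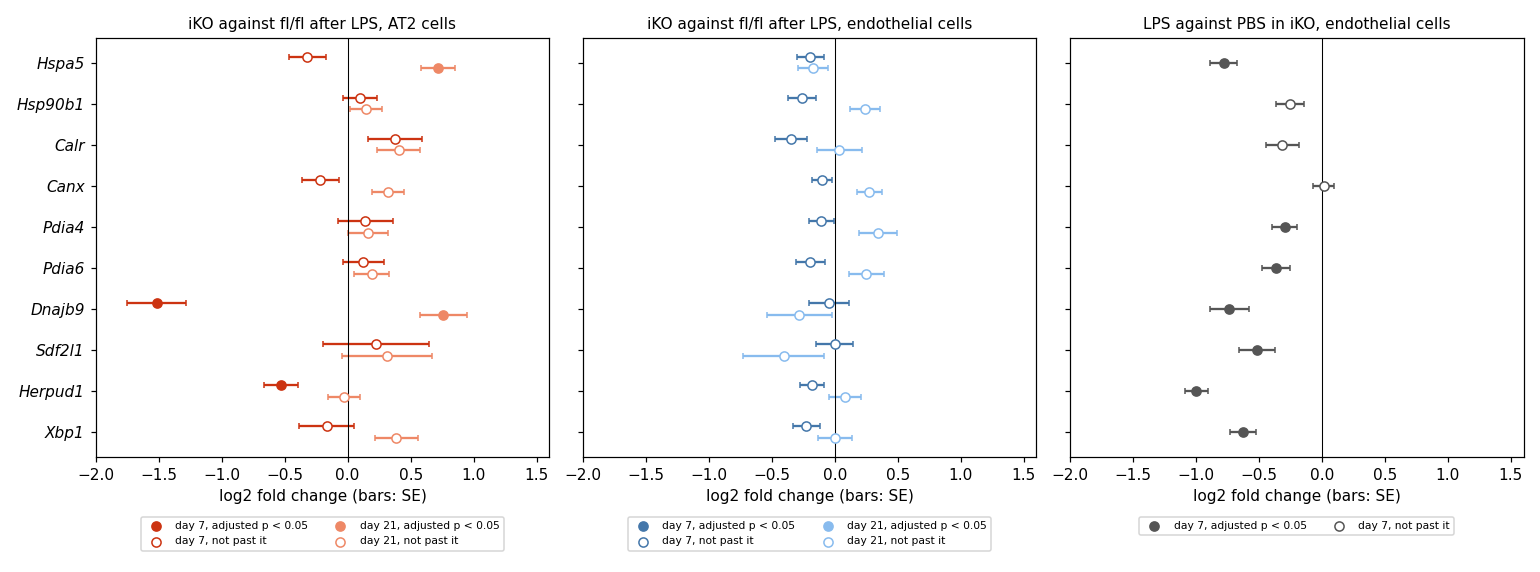
Log2 fold change (horizontal axis, bars are SE) of each gene (vertical axis) for iKO against fl/fl mice after LPS in AT2 cells and in endothelial cells at days 7 and 21, and for LPS against PBS in iKO endothelial cells. Filled points passed an edgeR adjusted p of 0.05. In AT2 cells Dnajb9 lies at -1.51 at day 7 and 0.76 at day 21; the endothelial genotype points are all open, and 7 of 10 points for LPS against PBS are filled and below 0.

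LPS and PBS mice could be compared in Itgb1 iKO endothelial cells, in which 7 of the 10 members were lower at day 7 after LPS than after PBS and none was higher. Each treatment was 1 library, so treatment and library cannot be told apart. Many genes differed between these mice, and 26.2% of 11757 were called, 11.9% lower and 14.3% higher after LPS. Herpud1 had the largest difference among the members. It was 239, 275 and 251 CPM in PBS mice 1, 2 and 3 and 136, 147 and 127 in LPS mice 3, 4 and 5. No mice overlapped, and the log2 fold change was -0.995 ± 0.09 (SE) with an edgeR adjusted p of 9.17e-07.

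BiP and its partners followed. Hspa5 was 717, 662 and 605 CPM after PBS and 409, 393 and 433 after LPS, a log2 fold change of -0.78 ± 0.11 (SE) (edgeR adjusted p = 3.06e-05). Dnajb9 was 57.7, 68.0 and 57.6 and 33.2, 43.9 and 40.6, at -0.73 ± 0.15 (SE) (0.00137). Sdf2l1, which binds BiP, was 29.6, 37.5 and 40.2 and 25.4, 26.1 and 28.3, at -0.52 ± 0.14 (SE) (0.0125). In all 3 genes every LPS mouse lay below every PBS mouse. Xbp1 was 305, 320.1 and 298 after PBS and 245, 202 and 193 after LPS, at -0.62 ± 0.11 (SE) (edgeR adjusted p = 2.31e-04), and its groups did not overlap either. Female PBS mouse 1 and male PBS mice 2 and 3 were on the same side for each of these genes, while the LPS mice were all male.

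The isomerases fell less. Pdia6 changed by -0.37 ± 0.11 (SE) (edgeR adjusted p = 0.0224) and Pdia4 by -0.29 ± 0.10 (SE) (0.0364). Without TMM scaling both lost their call, and Pdia4 also lost it with sex as a term (adjusted p = 0.0615). Calr, Hsp90b1 and Canx were not called. Calr was at -0.31 ± 0.13 (SE) (edgeR adjusted p = 0.0813), Hsp90b1 at -0.25 ± 0.11 (SE) (0.0992) and Canx at 0.01 ± 0.08 (SE) (0.921), Canx being 343, 323 and 343 CPM after PBS and 366, 339 and 384 after LPS. Mice did not overlap for 6 of the 10 members, LPS lower, against 13.3% of genes, and the member median was -0.44 against 0.02 over all genes. These LPS mice are the same as in the day 7 genotype comparison. Markers of the cell types also moved in this gate. The 7 endothelial markers summed to 15777 to 17250.4 CPM after PBS and 11685 to 13718 after LPS, with 3 called lower and a median log2 fold change of -0.23. The 7 mesenchymal markers summed to 31.4 to 37.0 and 233 to 254 CPM, with 6 called higher, and the 7 AT2 markers to 169.8 to 238 and 571 to 1059.8, also with 6 called higher; Sftpc was 260.2 to 714 and 2529 to 3857. Of 4 airway markers 2 were called higher, of 3 AT1 markers tested 2 higher and 1 lower, and of 2 red cell markers 1 higher. The 1 plasma cell marker tested was called lower. The part of these shifts in the member values was not tested.

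**Figure D3:**
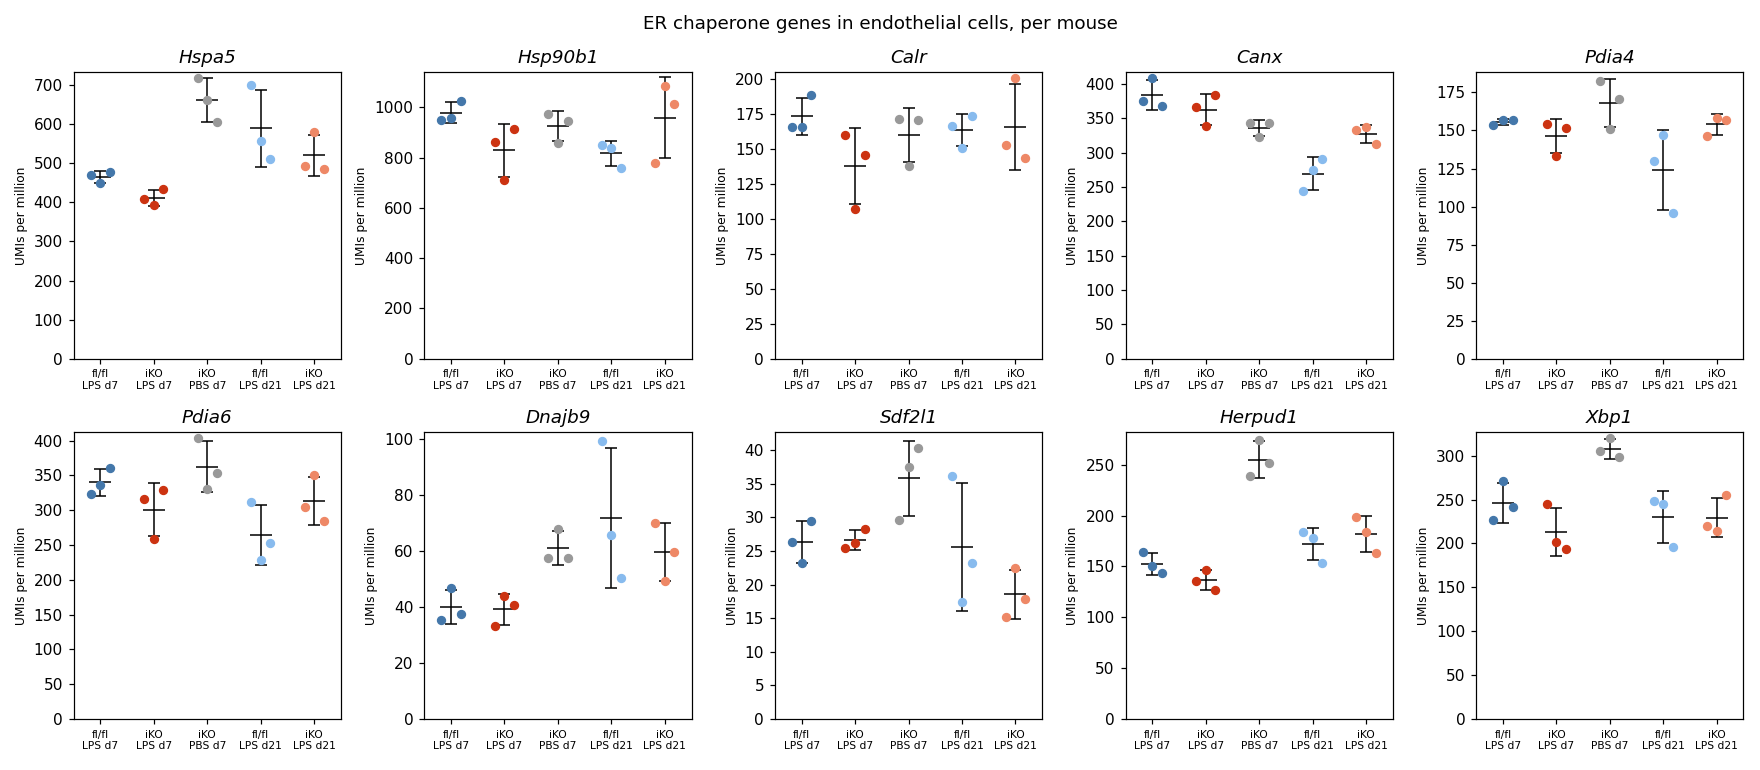
Level of each of the 10 genes in endothelial cells (vertical axis, CPM, from 0) for each mouse in the 5 conditions, with the mean and SD of each group as bars. The 3 PBS mice (grey) lie above the iKO LPS mice of day 7 for Hspa5, Pdia6, Dnajb9, Sdf2l1, Herpud1 and Xbp1, and for Herpud1 they lie between 239 and 275.

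Other genes of the pathway fell in this comparison as well, and their counts are read against the 11.9% of all genes that fell and the 14.3% that rose. Of 14 degradation genes tested, 7 fell and none rose, with a median of -0.26. Of 11 BiP partners, 4 fell, and of 10 sensors and transcription factors, 3 fell. The other lists moved little, with 1 gene higher and 1 lower of 16 in oxidative and glycoprotein folding and 2 lower of 16 in translocation, a share near that of all genes. The genes named here were chosen after their values were seen. Syvn1, the ubiquitin ligase that HERPUD1 recruits, fell by 0.89 ± 0.11 (SE) on the log2 scale, and Manf, a secreted factor that binds BiP, fell by 0.82 ± 0.10 (SE) (edgeR adjusted p = 1.84e-05 and 1.11e-05). The stress-response transcription factors Ddit3 and Atf4 fell by 0.73 ± 0.16 (SE) and 0.60 ± 0.11 (SE) (edgeR adjusted p = 0.00235 and 6.99e-04). Prdx4, a peroxidase of oxidative folding, rose by 0.69 ± 0.16 (SE) (0.00384).

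Mesenchymal cells were few, and no member was called between genotypes by edgeR there. At day 7, 0 members were called by edgeR and 0 by DESeq2, 1 was below an unadjusted p of 0.05, while 0.115% of 5210 genes were called and 5.51% were below that p. That member was Hspa5, at 1679.5, 1541 and 1285 CPM in fl/fl and 999, 838 and 867 in iKO mice. The groups did not overlap, and the log2 fold change of Hspa5 was -0.70 ± 0.23 (SE) (edgeR adjusted p = 0.565). Xbp1 did not overlap either, at 224 to 238 CPM in fl/fl and 163 to 192 in iKO mice. The share of all genes lower without overlap is not given for this comparison, so no weight is put on this. Of the 10 members, 9 had a negative fold change at day 7, with a median of -0.29 against -0.02 over all genes. At day 21 iKO mouse 3 had 8 cells and was left out, so 2 iKO mice were compared with 3 fl/fl mice. Hspa5 was then 867, 1321 and 1068 in fl/fl mice and 2058 and 1639 in iKO mice 1 and 2, at 0.68 ± 0.26 (SE) (edgeR adjusted p = 0.354). The edgeR fit called 0% of the 5210 genes there, with 10.9% below an unadjusted p of 0.05, whereas DESeq2 called 49 genes and 1 member, Hspa5 (0.72, adjusted p = 0.0455). The iKO mice were above the fl/fl mice for 5 members, against 15.3% of genes. In the AT2 gate the log2 fold change of Hspa5 was -0.32 at day 7 and 0.71 at day 21. The genotype effects of mesenchymal and AT2 cells were not compared by a test.

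Between cell types of the same mice, averaged over the groups, Dnajb9, Herpud1 and Hspa5 were higher in AT2 than in endothelial cells. Xbp1 was lower, and both held under the 2 scalings that were run. Surfactant RNA fills much of an AT2 library, which lowers the CPM of every other gene, and TMM scaling moved the median of all genes from -0.69 to -0.11. Over 12 mice the log2 difference with TMM was 1.40 ± 0.18 (SE) for Dnajb9, 1.17 ± 0.12 (SE) for Herpud1, 0.94 ± 0.11 (SE) for Hspa5 and -0.45 ± 0.09 (SE) for Xbp1, with edgeR adjusted p-values of 1.32e-07, 1.08e-09, 1.43e-08 and 9.60e-05. Without TMM these were 0.82, 0.58, 0.36 and -1.03. The groups were not alike. In fl/fl mice at day 21 the mean CPM was lower in AT2 than in endothelial cells for Hspa5 (501 against 589) and Dnajb9 (63.0 against 71.7). In iKO mice at day 21 it was higher (904 against 520 and 119.5 against 59.7), and both genes were also higher in AT2 cells in the day 7 LPS groups. Most genes differed between these cell types, 73.4% of 9942, with 33.3% higher and 40% lower in AT2 cells. Of the members, 5 were called higher and 1 lower with TMM, and 3 higher and 5 lower without it.

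The remaining members depended on the scaling. Pdia6 and Sdf2l1 were called higher in AT2 cells with TMM, at 0.58 and 0.38, and stood at -0.0059 and -0.20 without it. Hsp90b1, Calr, Canx and Pdia4 were between -0.01 and 0.12 with TMM, none called, and between -0.59 and -0.46 without it, all called. In CPM, Xbp1 had a mean of 111 in AT2 and 229.7 in endothelial cells, and every AT2 sum was below every endothelial sum, which 28.7% of genes showed.

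Mesenchymal cells had more of most members than endothelial cells. Over 11 mice, 8 of 10 were called higher and none lower, where 30.6% of 10024 genes were higher and 26.5% lower. Hspa5 led with 1.495 ± 0.13 (SE) (edgeR adjusted p = 1.52e-10), at a mean of 1287 CPM against 497, and all mesenchymal sums were above all endothelial sums, as for 7.87% of genes. Calr and Pdia6 were each 0.80 higher, Pdia4 0.74, Sdf2l1 0.86 and Hsp90b1 0.63 on the log2 scale. Dnajb9 (0.38) and Canx (0.30) lost their call in most alternatives, and Herpud1 and Xbp1 were at 0.03 and 0.06. With hashtags called at 8 times background, 5 members were called.

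**Figure D4:**
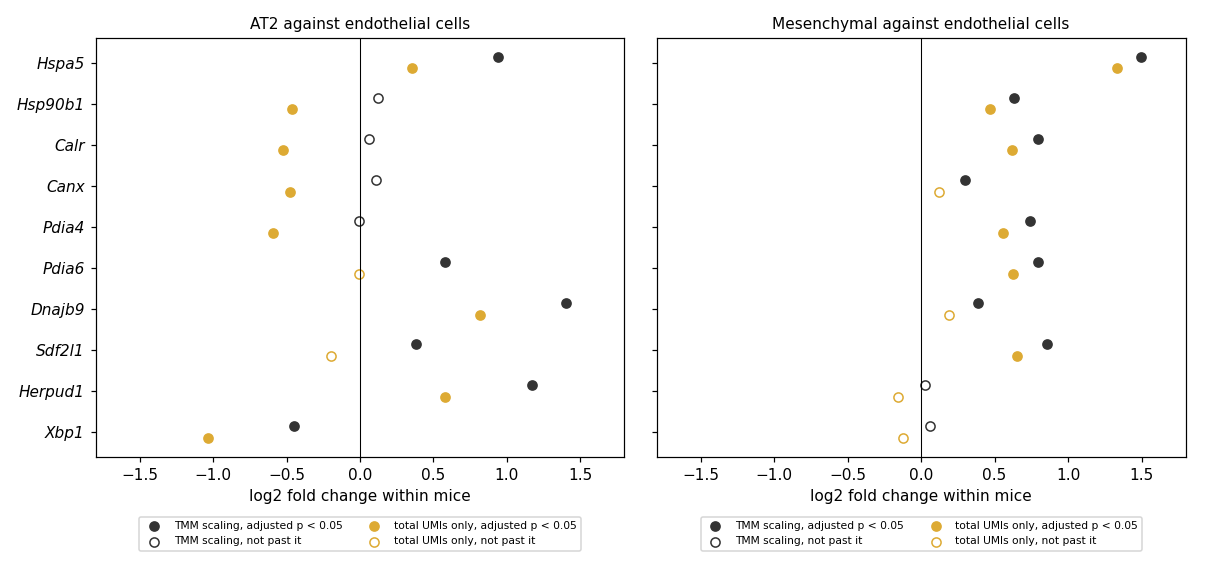
Log2 difference (horizontal axis) of each gene (vertical axis) between cell types of the same mice, AT2 against endothelial on the left and mesenchymal against endothelial on the right, with TMM scaling (black) and with total UMIs as the only scaling (yellow); filled points passed an edgeR adjusted p of 0.05. On the left the scalings part for 6 members, and Dnajb9, Herpud1 and Hspa5 stay right of 0 and Xbp1 left of it; on the right Hspa5 is farthest from 0, at 1.495 with TMM.

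The members varied together only in part. Over 38 mouse and gate sums, with each gene centred within its gate, the 45 pairs of members had a median Pearson r of 0.28, from -0.37 to 0.71, and 35 pairs were positive. The sums share libraries, so these are descriptions. Pdia6 followed the mean of the other members most closely (r = 0.66), then Hspa5 (0.57), Calr (0.56), Hsp90b1 (0.51), Canx (0.49), Xbp1 (0.42) and Pdia4 (0.35). Sdf2l1 (0.15), Dnajb9 (-0.01) and Herpud1 (-0.09) were near 0. Among 4358 genes with a mean of at least 20 CPM in each gate, those nearest to the mean of the members were Atp2c1 (r = 0.69), Pdia3 (0.67), Sec14l1 (0.64), Plod3 (0.60), Ptgs1 (0.60), Trappc9 (0.58), Tmem30a (0.57), Hsp90ab1 (0.57), Tubb2a (0.57) and Txndc12 (0.56). Pdia3 was also on the list of oxidative and glycoprotein folding.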

How the data were processed

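Lung cells from 5 single-cell libraries (10x Chromium 5′) were analysed. The authors aligned the reads to mm10 with Cell Ranger 3.1 and deposited raw UMI counts for genes and hashtag antibodies, with no normalization. Their free-RNA correction, filters and doublet removal were not applied to the deposited counts. A UMI count does not depend on transcript length. Kept cells had 700 or more genes and a mitochondrial share of 0.1 to 15%. A hashtag counted as used when it made up 1% or more of the hashtag counts of its library, and as present in a cell when it exceeded the background by 4 times. Cells with more than 1 hashtag, 4.91% to 14.1% of cells, were left out of the sums by mouse and gate, which took those with a single hashtag (50.3% to 78.7%). No doublet caller was run. Shares of cells, pooled library levels and AT2-equivalent RNA used all cells of a gate, those with no or more than 1 hashtag included.

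Sums of at least 10 cells were tested with edgeR 4.0.16 (filterByExpr, TMM, glmQLFit and glmQLFTest, Benjamini-Hochberg over all genes, in R 4.3.3). All groups of a gate shared 1 fit, and comparisons between gates had mouse as a block. SE is the absolute log2 fold change divided by the square root of F. DESeq2 1.42.0 was an alternative. Of the fits, 5 were run on simulated data with 200 genes changed, the raised ones at a fitted median log2 fold change of 1.49 to 1.52. They recovered 160 of these genes for AT2 cells at day 7, 187 at day 21 and 193 for endothelial cells at day 7. For AT2 against endothelial cells 197 were recovered, but only 78 for the day 7 difference between these cell types. False calls were 2 to 12. Smaller changes were not simulated. CPM is counts per 1000000 UMIs. The nearness of genes used log2 of CPM plus 1. The members, lists and tests were chosen with earlier results of these data known. Genes were named by rule: all members, up to 3 genes of each list past the threshold in the AT2 genotype comparisons (there were none), and the 10 genes nearest to the member mean; others are said to be chosen later. Coordinates are from GENCODE M21 (GRCm38) and promoters from RefSeq (GRCm38.p6). The p-values measure the spread between hashtags, each taken as a mouse, of a single library per condition. Xist in the endothelial sums of mice taken as male was at most 66.7 CPM; its source was not tested.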

Additional observations from a re-analysis of the deposited data

Results flagged for a closer look

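Genotype effects (log2 of iKO over fl/fl after LPS) differed between cell types or days in the edgeR fits for 6 results. Between AT2 and endothelial cells of the same mice, Dnajb9 differed by -1.47 and Calr by 0.83 at day 7, and Hspa5 by 0.86 and Dnajb9 by 0.99 at day 21. Between day 21 and day 7 in AT2 cells, Dnajb9 differed by 2.27 and Hspa5 by 1.04. DESeq2 called both day differences and none of the 4 differences between cell types. The day 7 mice differ in sex as well as genotype, and the day 21 libraries were enriched for epithelial cells, so those factors cannot be told apart from the day.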

How the results depend on the processing

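Counts of called members were within 1.5 times the reported count except as follows. In AT2 cells at day 7 (2 members), 1 was called without TMM, without the filter on low counts, with only the groups compared, with at least 30 cells (1 fl/fl mouse left), with hashtags at 8 times background and with sex as a term (chosen after seeing the data), and 1 to 2 when a mouse was left out. At day 21 (2), leaving out a mouse gave 1 to 2. In mesenchymal cells at day 21, DESeq2 called 1 against 0, and against endothelial cells 5 were called against 8 with hashtags at 8 times background. For the day 7 difference between AT2 and endothelial cells (2 members), DESeq2 called 0, and the fits without the filter, with at least 30 cells and with the AT2 gate at 2% Sftpc called 1, leaving out a mouse 0 to 1. For that at day 21 (2), DESeq2 called 0, hashtags at 8 times background 1, leaving out a mouse 1 to 2. For the difference between days (2), hashtags at 8 times background and sex as a term each called 1. Leaving out a mouse gave 5 to 8 members for LPS in endothelial cells (7 reported). Of single members, 5 reversed, all between AT2 and endothelial cells without TMM, to -0.46 for Hsp90b1, -0.52 for Calr, -0.48 for Canx, -0.0059 for Pdia6 and -0.20 for Sdf2l1. The cause was not tested.

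Counts over all genes moved more. In AT2 cells at day 7 (131 genes) they were 209 without the filter, 82 with only the groups compared, 65 with hashtags at 8 times background and 72 with sex as a term. In endothelial cells they went from 289 to 594 without the filter and 80 with sex at day 7, and from 62 to 196 (DESeq2), 194 (no filter) and 129 (groups compared) at day 21. In mesenchymal cells they went from 6 to 11 (DESeq2), 138 (no filter) and 3 (hashtags at 8 times background or sex) at day 7, and from 0 to 49, 69 and 8 (DESeq2, no filter, groups compared) at day 21. The differences between cell types fell from 141 to 28 (DESeq2), 53 (30 cells) and 91 (hashtags) at day 7 and from 182 to 47 (DESeq2) at day 21, and that between days went from 40 to 95 (no filter) and 24 (sex). Leaving out 1 mouse gave 42 genes without fl/fl mouse 3 and 86 without iKO mouse 3 in AT2 cells at day 7, and at day 21 (257 genes) 109, 134 and 105 without fl/fl mouse 1, 2 or 5 and 145 and 80 without iKO mouse 2 or 3. In endothelial cells it gave 147 and 182 without fl/fl or iKO mouse 4 at day 7, and at day 21 35 and 10 without fl/fl mouse 1 or 2 and 26, 18 and 22 without iKO mouse 1, 2 or 3. In mesenchymal cells at day 7 it gave 26 without fl/fl mouse 3 and 3 without mouse 5 of either genotype, and at day 21 1 without fl/fl mouse 2 or iKO mouse 1. The day 7 difference between cell types had 72 without iKO mouse 4, and that between days had 14 without fl/fl mouse 3, 23 and 26 without iKO mouse 3 or 5 of day 7, and 22, 20 and 24 without fl/fl mouse 2 or 5 or iKO mouse 3 of day 21.

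No paired analysis was possible because each condition was a single library and hashtag numbers do not link mice of different conditions; this holds for comparisons between conditions, while those between cell types had mouse as a block. A mesenchymal comparison at day 21 had no value at 30 cells or with hashtags at 8 times background. AT2 and mesenchymal cells after PBS, with at most 9 and 7 cells a mouse, had no test. Where an omitted mouse left a group small, its spread was taken from all groups.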
